A study of Mus musculus with 26 samples.

Results

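IGHA, the constant region gene of the immunoglobulin A heavy chain, was 1 of 7 constant genes read in heavy-chain repertoires of mouse B cells. Its members were taken as every listed sequence whose constant gene call was IGHA, with the technical libraries of a replicate added together. They were 209443 of 2095280 listed sequences and fell into 114636 of 1674869 clonotypes, a clonotype being a V gene, a J gene and a junction nucleotide sequence in 1 replicate. Skin held 13844 IGHA copies in 324 clonotypes, spleen 841712 in 66115, lymph node 17265 in 1437 and the positive control 79369 in 46760.

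The tissue samples came from WT mice, all with the treatment "S. epidermidies association", as the labels spell it, which is exposure to a common skin bacterium. Skin (ear skin), spleen and lymph node each had 4 biological replicates with 2 technical libraries, and the positive control had 1 replicate with 2 libraries. The control is labelled B cells and WT, with no treatment or tissue. There was no unassociated group, so the design compares tissues, in a series that is titled for germinal centers of the skin. Age, sex and strain were not given in the labels, and the tissue field reads ear skin for every tissue sample, so skin, spleen and lymph node follow the sample titles. All tissue samples are labelled B cells, and the tables hold heavy-chain sequences only, so no other marker of a tissue or cell type could be read. The labels do not say that same-numbered samples came from the same mouse.

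IgA is the antibody class that plasma cells of mucosal tissues make in the largest amounts, and it is carried across epithelia into secretions. A B cell first expresses IgM and IgD on 1 rearranged VDJ segment. Class switch recombination then moves that segment next to a downstream constant gene, so cells of 1 clone can carry the same junction with IGHM, IGHD, IGHG or IGHA. Somatic hypermutation, which is strongest in germinal centres, adds base changes to the V segment, and their number is a measure of a clone's history. In the RefSeq annotation of GRCm38.p6, Igha lies on chromosome 12 at bases 113256204 to 113260236, at the far end of the constant gene cluster from Ighm, which lies at 113418826 to 113422730. The mouse V, J and constant genes named here belong to this locus.

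A property of the tables bears on every value that sets IGHA beside another constant gene. Within a table a distinct sequence was almost always listed under a single constant gene: of 2094247 distinct sequences counted per table, 283 stood under more than 1. A clonotype could thus hold a second constant gene in a table only where another sequence of the same junction carried it. Between the 2 tables of a replicate, the same sequence could be listed under different constant genes. Among identical sequences present in both tables and listed as IGHA in at least 1, the other table gave another constant gene for 0 of 6, 0 of 11, 1 of 13 and 1 of 13 in skin replicates 1 to 4. In spleen the counts were 39 of 587, 1813 of 7583, 182 of 3702 and 282 of 4917. In lymph node they were 4 of 23, 6 of 83, 5 of 47 and 4 of 70. The positive control stood apart, with 2208 of 3877 (57.0%), and spleen replicate 2 was the highest of the spleen samples at 23.9%. The other gene was most often IGHM, followed by IGHG, except in lymph node replicates 2 and 3, where it was IGHG for 4 of 6 and 3 of 5 sequences.

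Lymph node replicate 4 showed what this can do to a level. IGHA made up 8.14% of copies in its library 1 and 2.26% in its library 2. A clonotype of IGHV5-9-1 with IGHJ4 had 5459 IGHA copies in library 1 and none in library 2, where its 5691 copies were listed as IGHM. It was 47.6% of the IGHA copies of that replicate. Its junction, shown because 1 sequence moved the level of a whole sample, was as follows.
Lymph node replicate 4, IGHV5-9-1 with IGHJ4: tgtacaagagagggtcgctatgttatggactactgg
Clonotypes found in both libraries whose most copied constant gene differed between them held 58.2% of the IGHA copies of lymph node replicate 4, 17.6% of those of spleen replicate 2 and 11.8% of those of skin replicate 4. In the other 9 tissue samples they held 0% to 9.19%. Values without these clonotypes are given beside the results that they moved most.

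The largest IGHA clonotype of each sample gives a view of what the IGHA copies were. The junctions below, from the conserved cysteine codon to the tryptophan codon, are those of the largest IGHA clonotype with IGHA copies in both libraries. They are shown because in skin they carried much of the IGHA signal.
Skin replicate 1, IGHV14-3 with IGHJ2: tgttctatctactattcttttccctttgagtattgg
Skin replicate 2, IGHV1-7 with IGHJ3: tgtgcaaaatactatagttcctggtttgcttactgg
Skin replicate 3, IGHV9-3 with IGHJ1: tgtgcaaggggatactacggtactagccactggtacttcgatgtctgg
Skin replicate 4, IGHV14-1 with IGHJ2: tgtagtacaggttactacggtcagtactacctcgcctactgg
Spleen replicate 1, IGHV1-26 with IGHJ3: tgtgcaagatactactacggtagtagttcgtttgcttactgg
Spleen replicate 2, IGHV3-6 with IGHJ1: tgtgctgactatggtaacctcgatgtctgg
Spleen replicate 3, IGHV1-76 with IGHJ1: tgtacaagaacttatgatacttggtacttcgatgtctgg
Spleen replicate 4, IGHV1-26 with IGHJ2: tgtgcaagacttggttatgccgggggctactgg
Lymph node replicate 1, IGHV2-9-1 with IGHJ4: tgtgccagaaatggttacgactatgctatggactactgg
Lymph node replicate 2, IGHV5-12 with IGHJ2: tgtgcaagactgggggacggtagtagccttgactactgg
Lymph node replicate 3, IGHV1-53 with IGHJ4: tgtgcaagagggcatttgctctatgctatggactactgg
Lymph node replicate 4, IGHV1-9 with IGHJ2: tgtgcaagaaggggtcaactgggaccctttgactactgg
Positive control, IGHV11-2 with IGHJ1: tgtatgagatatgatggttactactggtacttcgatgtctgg
All 13 differed in their junction. In skin these single clonotypes held 696, 1783, 726 and 374 IGHA copies in replicates 1 to 4, which was 31.2%, 32.9%, 24.0% and 11.8% of the IGHA copies. In spleen they held 2477, 15626, 6843 and 8853 copies, which was only 4.98%, 3.76%, 5.23% and 3.61%. In lymph node they held 163, 733, 685 and 766 copies, which was 14.4%, 30.02%, 31.0% and 6.67%, and the control's, an IGHV11-2 clonotype, held 2766 (3.48%). A skin clonotype at the top of its list had fewer copies than its spleen counterpart in every sample but a several-fold larger share. The clonotype of spleen replicate 1 ranked 2 and that of lymph node replicate 4 ranked 3 by copies, the higher ones having IGHA copies in 1 library only. Of the 13, only that of skin replicate 4 held another constant gene, with 319 IGHM copies beside its 374 IGHA copies.

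The V parts of some of these clonotypes show the range of mutation among abundant IGHA sequences. Each is the most copied IGHA sequence of its clonotype from its second complementarity determining region to its junction, with capitals at bases that differ from the commonest unmutated IGHA sequence of the same allele in the tables. Spleen replicate 2 is shown by its largest clonotype that also held IGHM, and lymph node replicate 4 by the IGHV5-9-1 clonotype above.
Skin replicate 1, IGHV14-3: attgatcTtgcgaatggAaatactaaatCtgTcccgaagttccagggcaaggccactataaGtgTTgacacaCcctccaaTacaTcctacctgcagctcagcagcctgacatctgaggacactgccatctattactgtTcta
Skin replicate 2, IGHV1-7: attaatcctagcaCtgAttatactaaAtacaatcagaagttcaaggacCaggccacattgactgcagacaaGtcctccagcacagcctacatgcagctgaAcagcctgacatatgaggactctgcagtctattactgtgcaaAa
Skin replicate 3, IGHV9-3: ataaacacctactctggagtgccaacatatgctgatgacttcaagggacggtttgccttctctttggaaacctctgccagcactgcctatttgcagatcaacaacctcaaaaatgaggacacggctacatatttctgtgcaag
Skin replicate 4, IGHV14-1: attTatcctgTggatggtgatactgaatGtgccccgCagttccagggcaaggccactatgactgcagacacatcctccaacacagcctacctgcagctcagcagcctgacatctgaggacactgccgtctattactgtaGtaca
Spleen replicate 4, IGHV1-26: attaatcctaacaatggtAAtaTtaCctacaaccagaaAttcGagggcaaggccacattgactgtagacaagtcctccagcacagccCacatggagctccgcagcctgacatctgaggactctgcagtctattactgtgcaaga
Spleen replicate 2, IGHV1-75: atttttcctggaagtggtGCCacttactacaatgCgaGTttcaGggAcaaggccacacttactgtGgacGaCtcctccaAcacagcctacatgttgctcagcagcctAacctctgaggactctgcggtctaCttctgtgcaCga
Lymph node replicate 3, IGHV1-53: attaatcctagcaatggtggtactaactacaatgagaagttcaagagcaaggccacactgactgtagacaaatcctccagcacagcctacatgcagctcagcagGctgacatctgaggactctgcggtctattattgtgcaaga
Lymph node replicate 4, IGHV5-9-1: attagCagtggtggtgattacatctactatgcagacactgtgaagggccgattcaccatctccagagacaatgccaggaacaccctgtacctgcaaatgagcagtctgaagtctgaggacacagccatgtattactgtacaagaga
These sequences had 11, 7, 0 and 5 mismatches in skin replicates 1 to 4, against 7 in spleen replicate 4, 15 in the IGHV1-75 clonotype of spleen replicate 2, and 1 in each of the lymph node clonotypes. The IGHV1-75 clonotype held 10003 IGHA and 4641 IGHM copies. Among the largest clonotypes of the 12 tissue samples, 6 had no mismatch in their most copied IGHA sequence: 1 for skin, 2 for spleen and 3 for lymph node. The IGHV11-2 clonotype of the control had none either.

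**Figure D1:**
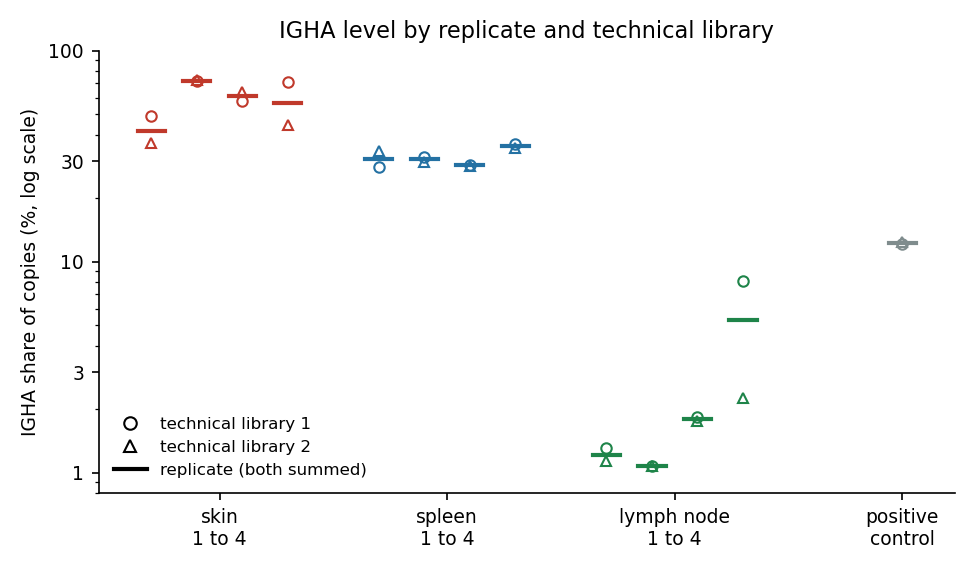
IGHA share of all copies (%, log scale) in each technical library (circles, library 1; triangles, library 2) and in each replicate with both libraries summed (bars), for skin, spleen, lymph node and the positive control. The 4 skin bars lie between 41.6% and 72.3%, above all spleen bars (28.6% to 35.3%) and all lymph node bars (1.07% to 5.27%), and the libraries of lymph node replicate 4 and of skin replicates 1 and 4 lie apart.

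IGHA was the constant gene of most copies in 3 of 4 skin samples, of about 30% in spleen and of a few percent in lymph node. In skin it made up 41.6%, 72.3%, 60.9% and 56.3% of copies in replicates 1 to 4. In spleen it made up 30.7%, 30.5%, 28.6% and 35.3%, and in lymph node 1.22%, 1.07%, 1.79% and 5.27%. The 3 tissues did not overlap in any sample. Skin averaged 57.7% ± 12.7, spleen 31.3% ± 2.83 and lymph node 2.34% ± 1.98 (SD, n = 4 each). The differences of 26.5, 55.4 and 29.0 percentage points, skin over spleen, skin over lymph node and spleen over lymph node, each gave 0.0286 as adjusted p in an exact two-sided permutation test that runs through all 70 splits of 4 against 4. That is the smallest p this design can give, and it was adjusted by the Benjamini-Hochberg method over the 3 comparisons of a measure, as were the p-values below. Skin over spleen lost its call without any 1 spleen sample (25.6 to 27.8 points, adjusted p = 0.0571, exact permutation test). These tests take the samples as independent. Yet samples of the same replicate number mostly shared many more IGHA clonotypes than samples of different numbers, as described at the end. A test that pairs the samples by number has only 16 sign patterns and cannot pass for any comparison of tissues, so every tissue call here rests on unpaired splits. In these bulk samples, fewer cells that express IGHA and less IGHA RNA per cell cannot be told apart.

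The libraries of a replicate differed most in skin replicate 4, with 70.8% in library 1 and 44.4% in library 2, and in skin replicate 1, with 48.8% and 36.5%. In the other tissue samples apart from lymph node replicate 4 the gap between libraries was 0.000451 to 6.35 points. Without the clonotypes listed under different constant genes, lymph node replicate 4 had 2.84% IGHA and the lymph node mean was 1.71%, with the same adjusted p for all 3 comparisons. The positive control had 12.3% IGHA.

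Counted by clonotypes instead of copies, IGHA was a smaller part of each tissue. The share of clonotypes with IGHA was 14.3%, 30.3%, 26.4% and 33.5% in skin, against 13.4%, 7.63%, 5.21% and 5.75% in spleen. Lymph node had 0.810%, 0.397%, 0.550% and 0.478%, and the control 12.1%. The lowest skin value was close to the highest spleen value, and all lymph node values lay below both. All 3 comparisons had an adjusted p of 0.0286 (exact permutation test). Skin over spleen, 18.1 points, lost its call with library 2 alone (16.3 points), without single-copy clonotypes (10.3 points) and without any 1 spleen sample (17.2 to 19.9 points), at an adjusted p of 0.0571 in the same exact test. Skin over lymph node, 25.6 points, lost it at the same p without any 1 lymph node sample (25.5 to 25.6 points).

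The other constant genes were ordered by how their share of copies went with that of IGHA over the 12 tissue samples. Spearman's rho with the IGHA share was lowest for IGHM at -0.94, and was -0.82 for IGHG1, -0.81 for IGHG2, -0.69 for IGHE, -0.51 for IGHG3 and -0.47 for IGHD. These are descriptions over 3 tissues of 4 samples, and the shares of a sample add up to 1 total, so a high IGHA share lowers the others. No constant gene had a positive value. IGHD, which is made from the same primary transcript as IGHM, was 6.94% to 13.6% of skin copies, 5.02% to 15.4% of spleen copies and 11.8% to 15.5% of lymph node copies.

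**Figure D2:**
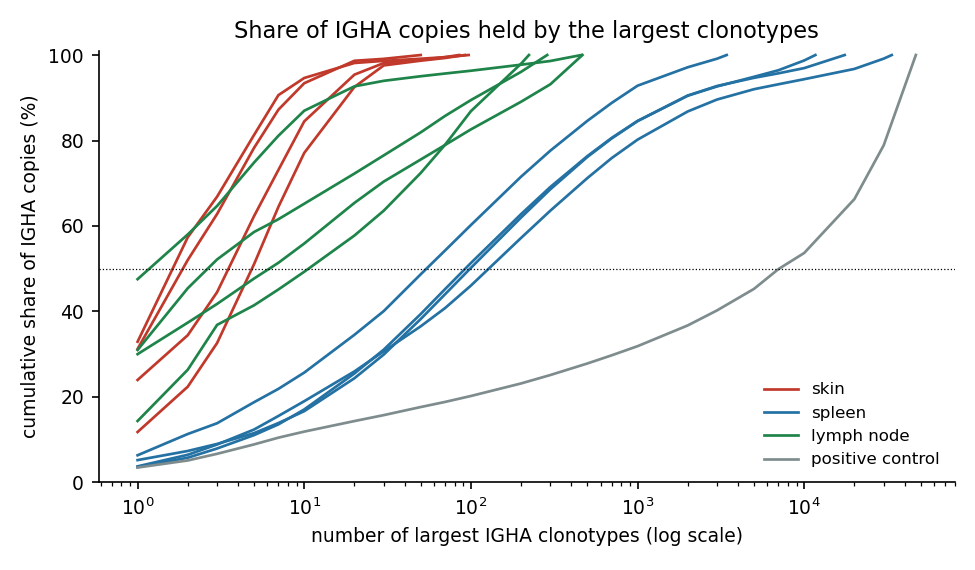
Cumulative share of IGHA copies (%) held by the largest IGHA clonotypes (number on a log scale), with 1 line per replicate. The dotted line marks 50%, which skin lines reach within 2 to 5 clonotypes, lymph node lines within 2 to 11, spleen lines within 54 to 129 and the positive control at 7076.

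IGHA in skin was made of few clonotypes with many copies each, IGHA in spleen of many clonotypes, and lymph node lay between them in the number of distinct clonotypes. Skin replicates 1 to 4 held 50, 97, 85 and 92 IGHA clonotypes with 44.6, 55.8, 35.6 and 34.5 copies each on average. Spleen replicates held 3427, 33515, 11670 and 17503 with 14.5, 12.4, 11.2 and 14.01 copies each. Lymph node replicates held 223, 467, 287 and 460 with 5.09, 5.23, 7.70 and 24.95 copies each, and the control held 46760 with 1.70 copies each. Every skin sample lay above every spleen and lymph node sample in copies per clonotype, and lymph node replicate 4 lay above all spleen samples. Skin averaged 42.6 ± 9.91 copies, spleen 13.04 ± 1.51 and lymph node 10.7 ± 9.55 (SD, n = 4 each). Skin was higher than spleen by 29.6 copies and than lymph node by 31.9 (adjusted p = 0.0429 for each, exact permutation test), and spleen and lymph node gave an adjusted p of 0.714. Both skin calls were lost with library 1 alone (21.4 and 20.1 copies, adjusted p = 0.0857 and 0.171) and without skin replicate 1 (28.9 and 31.2) or skin replicate 2 (25.2 and 27.5), at an adjusted p of 0.0857 in the same exact test. Without lymph node replicate 4, spleen was higher than lymph node by 7.04 copies (adjusted p = 0.0286, exact permutation test). Without the clonotypes listed under different constant genes, lymph node replicate 4 had 10.7 copies per clonotype and the lymph node mean was 7.06.

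Depth differed greatly between samples, so distinct clonotypes were also compared at 1134 IGHA copies, the total of the smallest sample, as the number expected in a random draw. At that depth skin had 34.2, 39.5, 49.9 and 54.6 distinct IGHA clonotypes. Spleen had 449, 598, 550 and 543, lymph node 223, 278, 202 and 90.8, and the control 954. The 3 tissues did not overlap. All 3 comparisons had an adjusted p of 0.0286 (exact permutation test), and skin averaged 44.5, spleen 535 and lymph node 198. The difference in distinct clonotypes at equal IGHA copies was -490.5 for skin over spleen, -153.8 for skin over lymph node and 336.6 for spleen over lymph node. Skin over lymph node lost its call without any 1 skin sample (-157.2 to -150.4, adjusted p = 0.0571, exact permutation test). Lymph node replicate 4, the lowest of its tissue, had 160 distinct clonotypes at 1110 IGHA copies when the clonotypes listed under different constant genes were left out.

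The 10 largest clonotypes held 93.4%, 94.6%, 84.5% and 77.1% of IGHA copies in skin. They held 25.7%, 19.0%, 16.7% and 17.1% in spleen, against 49.3%, 55.9%, 65.2% and 87.0% in lymph node and 11.9% in the control. Skin and lymph node overlapped through lymph node replicate 4, and spleen lay below both. The share was higher in skin than in spleen by 67.8 points and lower in spleen than in lymph node by 44.7 (adjusted p = 0.0429 for each, exact permutation test). Skin over lymph node, 23.1 points, had an adjusted p of 0.0857. That comparison passed without the clonotypes listed under different constant genes, at 25.3 points, and without lymph node replicate 4, at 30.6 (adjusted p = 0.0286 for each, exact permutation test).

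Many IGHA clonotypes rested on a single copy in every sample. Single-copy clonotypes were 60.9% to 62.4% of IGHA clonotypes in skin, 55.0% to 73.3% in spleen, 43.5% to 66.2% in lymph node and 85.8% in the control. Clonotypes with IGHA copies in both libraries were only 14.4% to 20% of the IGHA clonotypes of skin samples but held 84.6% to 95.5% of their IGHA copies. In spleen such clonotypes held 76.9% to 92.1% of IGHA copies, in lymph node 37.9% to 80.0% and in the control 30.1%. The IGHA copies of skin and spleen thus came mostly from clonotypes seen in both libraries, and lymph node replicate 4 was the lowest of the tissue samples. With the clonotypes listed under different constant genes left out, 90.6% of its IGHA copies lay in clonotypes seen in both libraries, and 5 clonotypes in place of 2 made up 50% of them.

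**Figure D3:**
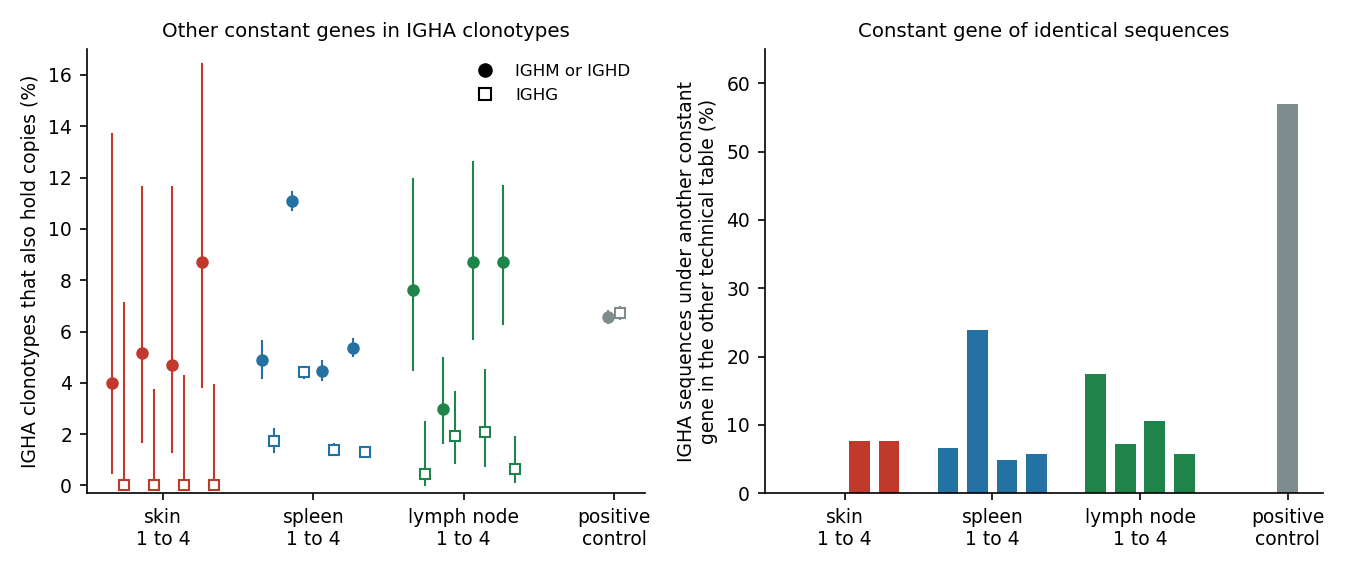
Left, share of IGHA clonotypes (%) that also held IGHM or IGHD copies (filled circles) or IGHG copies (open squares) at the full depth of each sample, with exact 95% Clopper-Pearson intervals. Right, share (%) of identical IGHA sequences that the other technical table of the same sample listed under another constant gene, 0% to 7.69% in skin and 57.0% in the control.

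Between 3.0% and 11.1% of the IGHA clonotypes of a tissue sample also held IGHM or IGHD copies, and the tissues overlapped. At full depth the counts were 2 of 50, 5 of 97, 4 of 85 and 8 of 92 clonotypes in skin, or 4.0%, 5.15%, 4.71% and 8.70%. In spleen 4.87%, 11.1%, 4.47% and 5.36% of IGHA clonotypes held IGHM or IGHD, and in lymph node 7.62%, 3.0%, 8.71% and 8.70%. No tissue stood apart. Leaving out the clonotypes listed under different constant genes gave 6.20% in spleen replicate 2 and 3.16% in skin replicate 2. At 4976 copies of all constant genes, the total of the smallest sample, skin had a share of 5.95% ± 2.23, spleen 4.77% ± 2.97 and lymph node 3.63% ± 3.06 (SD, n = 4 each). This depth does not equalize the copies of IGHA, which averaged 57.7% of all copies in skin and 2.34% in lymph node, or those of IGHM. The shares are therefore not matched for the depth of either gene. None of the 3 comparisons passed (adjusted p = 0.600 for each, exact permutation test), and the order of the tissues changed with the depth at which they were compared. Without the clonotypes listed under different constant genes skin had 4.72%, spleen 1.83% and lymph node 1.87% (adjusted p = 0.171 to 0.971, exact permutation test). With 50 to 97 clonotypes a skin value is loose: the exact 95% interval of replicate 1 ran from 0.488% to 13.7%.

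IGHM supplied most of these. Of all IGHM and IGHD copies it was 7307 of 9557 in skin, 1444074 of 1644552 in spleen and 471968 of 561847 in lymph node. Over all replicates of a tissue, 14 of 324 IGHA clonotypes of skin held IGHM and 5 held IGHD. In spleen 5008 of 66115 held IGHM and 457 held IGHD, and in lymph node 80 of 1437 and 17. Of the clonotypes with IGHM or IGHD, 17 of 19 for skin, 4229 of 5340 for spleen and 81 of 96 for lymph node had both genes in the same table, where they were different sequences of 1 junction. In the control it was 1799 of 3069, and 3069 was 6.56% of its IGHA clonotypes. Of the control's, 1100 (2.54%) held IGHM or IGHD without the clonotypes listed under different constant genes.

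By copies the picture was uneven within a tissue. Clonotypes with IGHM or IGHD held 1.39%, 2.33%, 0.958% and 16.1% of the IGHA copies of skin. They held 6.43%, 42.8%, 20.8% and 16.8% of those of spleen, and 8.99%, 1.68%, 3.12% and 59.2% of those of lymph node. Skin replicate 4 and lymph node replicate 4 stood apart from the other samples of their tissue, and each owed most of its value to 1 clonotype, the IGHV14-1 and IGHV5-9-1 clonotypes printed above. The IGHV14-1 clonotype of skin had 368 of its 374 IGHA copies in library 1. Without the clonotypes listed under different constant genes, the share of IGHA copies was 4.86% in skin replicate 4 and 2.44% in lymph node replicate 4. It was then 0.806% and 0.465% in skin replicates 2 and 3 and 0.508% in lymph node replicate 2.

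IGHG beside IGHA was found in spleen, lymph node and the control and in none of the skin clonotypes. At full depth 0 of 324 skin clonotypes held IGHG, which allows a share of up to 0.926%, and the whole of skin held only 61 IGHG copies. In spleen 1.72%, 4.41%, 1.40% and 1.3% of IGHA clonotypes also held IGHG, in lymph node 0.448%, 1.93%, 2.09% and 0.652%, and in the control 6.72%. A count of 0 allows up to 3.09% to 6.0% in a single skin sample, which covers most values of the other tissues, and skin replicates 1, 3 and 4 held 4, 1 and 0 IGHG copies in all, so a difference of skin from the other tissues could not be shown at this depth and no test of it is given. Spleen and lymph node were compared at equal copies of all constant genes, which again did not equalize the IGHA copies. The shares were 1.39%, 2.65%, 0.459% and 0.657% in spleen, against 0.150%, 1.34%, 5.28% and 0.122% in lymph node. The tissues overlapped (1.29% on average in spleen and 1.72% in lymph node, adjusted p = 0.886, exact permutation test). The lymph node average rests on replicate 3, and without that sample the sign turned, with spleen the higher by 0.751 points (adjusted p = 0.286, exact permutation test). When the clonotypes listed under different constant genes were left out, the averages were 0.599% in spleen and 0.163% in lymph node (adjusted p = 0.0571, exact permutation test). The full-depth shares were then 1.04% and 2.79% in spleen replicates 1 and 2, 0.437% and 0.717% in lymph node replicates 2 and 3, and 2.60% in the control. IGHG2, the class read with its subclasses together, was 162650 of the 188543 IGHG copies of spleen and 74008 of the 82383 of lymph node. It was also the most frequent of these genes beside IGHA, in 1545 of the 1926 spleen clonotypes with IGHG and in 18 of the 19 of lymph node. The largest such clonotype in spleen, an IGHV1-26 clonotype of replicate 2, held 11280 IGHA and 36 IGHG2 copies. IGHE, the constant gene of IgE, was found beside IGHA in 21 clonotypes of spleen, 99 of the control and none of skin or lymph node. These counts were 11 and 30 without the clonotypes listed under different constant genes.

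**Figure D4:**
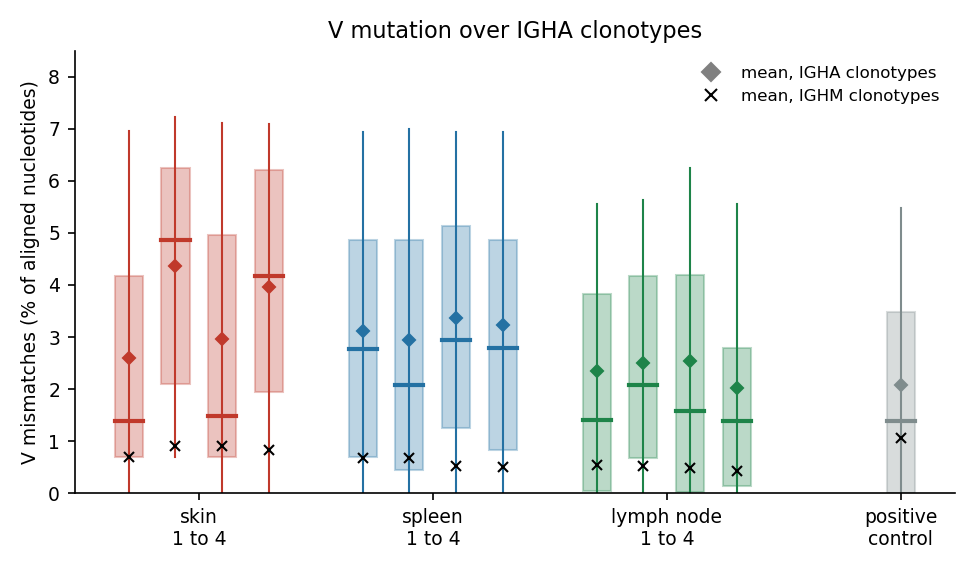
V mismatches as % of aligned V nucleotides over the IGHA clonotypes of each sample: boxes span the 25th to 75th percentile, thick bars mark the median, thin lines span the 10th to 90th percentile, diamonds mark the mean, and crosses mark the mean of IGHM clonotypes in the same sample. Every diamond lies above its cross, and the lymph node diamonds (2.01% to 2.54%) lie below all others among the tissues.

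IGHA clonotypes of skin and spleen were more mutated than those of lymph node, and the spread among the clonotypes of a sample was wide in each tissue. The mean V mutation, in percent of aligned V nucleotides with each clonotype counted once, was 2.59%, 4.36%, 2.97% and 3.97% in skin. It was 3.11%, 2.95%, 3.37% and 3.24% in spleen, 2.35%, 2.50%, 2.54% and 2.01% in lymph node and 2.07% in the control. Skin samples lay on both sides of the spleen samples, and every skin and spleen sample lay above every lymph node sample. Skin was higher than lymph node by 1.12 points and spleen by 0.818 (adjusted p = 0.0429 for each, exact permutation test), and skin over spleen gave an adjusted p of 0.486. Both calls were lost when clonotypes were weighted by copies (1.80 and 1.59 points) and when single-copy clonotypes were left out (0.976 and 0.714 points), with an adjusted p of 0.0857 for each (exact permutation test). They also failed without any 1 lymph node sample (1.01 to 1.19 and 0.705 to 0.881 points). When related clonotypes were joined into lineages, spleen over lymph node was lost at 0.394 points and skin was higher than spleen by 1.0 point (adjusted p = 0.114 and 0.0429, exact permutation test).

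The standard deviation over the IGHA clonotypes of a sample was 2.60, 2.64, 2.92 and 2.65 points in skin. It was 2.80, 3.01, 2.63 and 2.57 in spleen, 2.53, 2.48, 2.81 and 2.27 in lymph node and 2.21 in the control. The tissues overlapped, and the comparisons of this spread missed the threshold (adjusted p = 0.429 to 0.714, exact permutation test). With related clonotypes joined into lineages, the spread was larger in skin than in spleen by 0.581 points, where the difference between clonotypes was -0.0465, and larger than in lymph node by 0.740 (adjusted p = 0.0429 for each, exact permutation test). The 90th percentile was 6.95% to 7.22% over skin samples, 6.94% to 6.99% over spleen samples and 5.56% to 6.25% over lymph node samples, and the 10th percentile was 0 in all tissue samples except skin replicate 2, where it was 0.694%. Among 12 tissue samples the largest single value was 18.1%, in spleen replicate 2.

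Clonotypes with no V mismatch were found in every sample. They were 12.0%, 8.25%, 14.1% and 15.2% of IGHA clonotypes in skin. They were 16.1%, 22.9%, 11.9% and 12.5% in spleen, 24.7%, 18.4%, 25.1% and 23.3% in lymph node and 26.2% in the control. All skin values lay below all lymph node values, while spleen replicate 2 lay among the lymph node samples. Neither difference from lymph node passed (-10.5 points for skin and -7.03 for spleen, adjusted p = 0.0857 for each, exact permutation test). At the other end, clonotypes with more than 5% mismatches were 16%, 42.3%, 24.7% and 32.6% in skin, against 21.3% to 25.6% in spleen samples and 11.52% to 16.7% in lymph node samples. Skin replicates 2 and 4 were the 2 highest samples, and skin replicate 1 lay below all spleen samples. Replacement changes, which alter the encoded amino acid, were 64.99% to 78.8% of mismatches in skin, 70.4% to 74.9% in spleen, 69.0% to 72.8% in lymph node and 72.9% in the control.

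About 1 in 5 IGHA clonotypes of the tissues held more than 1 IGHA sequence. Clonotypes with at least 2 IGHA sequences were 18.5% to 24.0% of IGHA clonotypes in skin, 19.8% to 26.3% in spleen, 18.0% to 22.9% in lymph node and 6.61% in the control. The median range of V mutation within such a clonotype was 0.694 to 0.707 points in skin, about 1 mismatch in 144 aligned bases. It was 0.725 to 2.08 points in spleen, 0.694 to 0.714 in lymph node and 0.699 in the control. The most diverse clonotype held 7 to 16 IGHA sequences in skin samples, 72 to 170 in spleen samples and 12 to 17 in lymph node samples, at very different depths.

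IGHA clonotypes were more mutated than IGHM clonotypes of the same sample, in all 12 tissue samples. IGHM clonotypes, IgM being the class that precedes switching, had a mean V mutation of 0.704%, 0.911%, 0.901% and 0.831% in skin. They had 0.670%, 0.667%, 0.513% and 0.499% in spleen, 0.537%, 0.529%, 0.489% and 0.433% in lymph node and 1.07% in the control. None of these reached the lowest IGHA value of the tissues, 2.01%. IGHA minus IGHM was 2.36 points ± 0.578 (SD, n = 12), with p = 0.000488 in the exact sign-flip permutation test, the smallest it can give. That test takes the 12 samples as independent. Averaged over the 3 tissues of a replicate number, the difference was 2.05, 2.57, 2.33 and 2.48 points for numbers 1 to 4, positive in all 4, which are too few for the sign-flip test to pass. Skin averaged a difference of 2.64 points, spleen 2.58 and lymph node 1.85, and none of the comparisons between tissues passed (adjusted p = 0.0857 to 0.886, exact permutation test). IGHA also had more copies per clonotype than IGHM in all 12 samples, by 2.21 on the log2 scale ± 0.85 (SD, n = 12), with the same p in the same exact test. By replicate number this ratio averaged 1.53, 2.30, 2.32 and 2.70 on the log2 scale. The standard deviation of V mutation over clonotypes was larger for IGHA than for IGHM in 12 of 12.

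**Figure D5:**
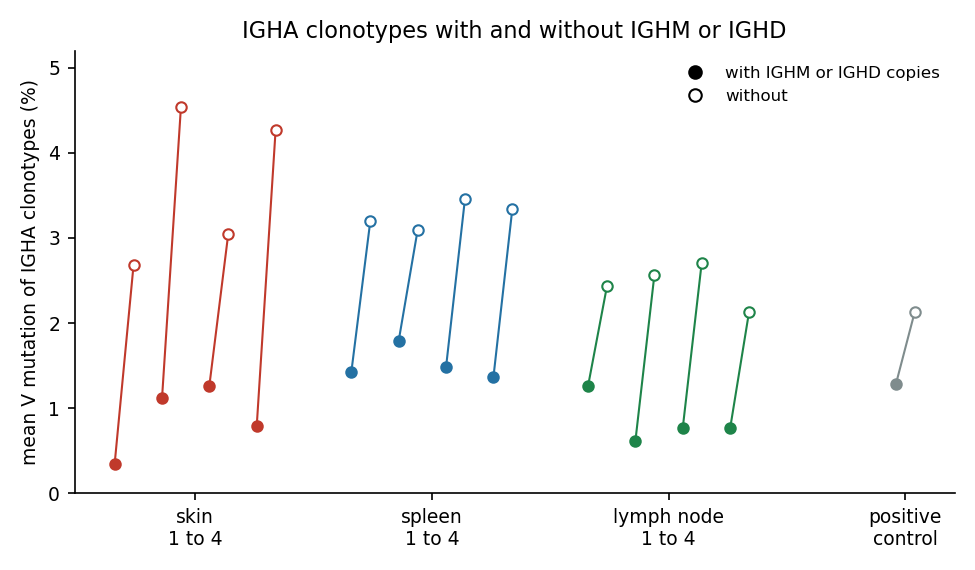
Mean V mutation (% of aligned V nucleotides) of IGHA clonotypes with IGHM or IGHD copies (filled circles) and without them (open circles), joined for each replicate. The filled circle lies below the open one in all 12 tissue samples and in the positive control.

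Among IGHA clonotypes, those that also held IGHM or IGHD copies were the less mutated ones. Their mean V mutation was 0.347%, 1.11%, 1.26% and 0.784% in skin, against 2.69%, 4.54%, 3.05% and 4.27% in the other IGHA clonotypes of skin. In spleen it was 1.43%, 1.79%, 1.48% and 1.36%, against 3.20%, 3.10%, 3.46% and 3.34%. In lymph node it was 1.26%, 0.617%, 0.768% and 0.761%, against 2.44%, 2.56%, 2.71% and 2.13%. The clonotypes with IGHM or IGHD had the lower mean in 12 of 12 tissue samples and in the control (1.28% against 2.13%), as a description with no test. They numbered 2, 5, 4 and 8 for skin, 167, 3713, 522 and 938 for spleen and 17, 14, 25 and 40 for lymph node, so the skin means rest on few clonotypes. Without the clonotypes listed under different constant genes they were still the lower ones in all 12 samples, with 0.231%, 0.465% and 0.398% in skin replicates 2 to 4. Their mean then rose to 2.30% in spleen replicate 2, against 3.11% in the others, and to 1.59% in lymph node replicate 1, against 2.44%. It fell to 1.23% in spleen replicate 1 and 0.718% in lymph node replicate 3, and rose less in the remaining spleen and lymph node samples. Their share without any mismatch was higher than that of all IGHA clonotypes in 11 of 12 samples, lymph node replicate 2 being the exception at 14.3% against 18.4%.

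Within clonotypes that held both genes, the mean mutation of the IGHA and of the IGHM sequences differed little in spleen and more in the other tissues, where fewer clonotypes stand behind it. In skin the IGHA sequences averaged 0.694%, 1.39%, 1.45% and 0.931%, against 0.231%, 1.46%, 1.497% and 1.02% in the IGHM sequences, over only 1, 4, 3 and 6 clonotypes. In spleen the IGHA sequences of such clonotypes averaged 1.57%, 1.77%, 1.48% and 1.34%, against 1.54%, 1.72%, 1.46% and 1.24% in their IGHM sequences. In lymph node they averaged 1.34%, 0.494%, 0.881% and 0.751%, against 1.41%, 0.349%, 0.619% and 0.918%. Leaving out the clonotypes listed under different constant genes moved the skin values most. The IGHA sequences then averaged 0.347%, 0.350% and 0.421% in skin replicates 2 to 4, against 0.843%, 0.509% and 0.534% in the IGHM sequences. In spleen replicates 1 to 4 they then averaged 1.36%, 2.27%, 1.56% and 1.38%, against 1.31%, 2.10%, 1.55% and 1.28%, so the gap widened in replicate 2. The IGHA value was the higher in all spleen samples, in 2 of 4 lymph node samples and in 1 of 4 skin samples. In the tables a sequence carries a single constant gene and could move to another between libraries, so how far such clonotypes are clones with switched and unswitched cells was not tested.

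IGHV1-26, a member of the largest mouse V family, had the highest mean share of IGHA clonotypes in all 3 tissues, though not in every sample: skin used it in 8.19% ± 4.90 of IGHA clonotypes, spleen in 9.23% ± 2.28 and lymph node in 7.52% ± 1.55 (SD, n = 4 each). In skin it was followed by IGHV9-3 with 7.40% ± 6.5 and IGHV1-53 with 5.95% ± 3.96. IGHV1-55 and IGHV1-53 followed in spleen with 7.94% ± 2.47 and 5.52% ± 0.814, and in lymph node with 6.59% ± 2.99 and 4.94% ± 2.02. The skin shares varied most. IGHV9-3 lay above IGHV1-26 in skin replicate 1 (10.0% against 4.0%) and replicate 3 (15.3% against 14.1%), and IGHV1-55 had 2.0%, 0%, 9.41% and 1.09% in skin replicates 1 to 4. The control began with IGHV1-4, IGHV14-3 and IGHV2-9, at 4.20%, 4.15% and 4.11%. Genes of the IGHV11 and IGHV12 families, known for their use by B-1a cells, were absent from the 324 IGHA clonotypes of skin. They made up 1, 78, 10 and 18 clonotypes in spleen replicates 1 to 4, which was 0.0292% to 0.233%. The counts were 0, 3, 0 and 6 in lymph node, up to 1.304%, and 166 (0.355%) in the control. A count of 0 among 324 allows up to 0.926%, which covers every spleen value, so no difference from spleen could be shown.

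J gene use overlapped between the tissues. Skin IGHA clonotypes used IGHJ4 in 32.1% ± 13.99, IGHJ2 in 30.8% ± 14.1, IGHJ3 in 22.4% ± 7.05 and IGHJ1 in 14.7% ± 12.0 of cases (SD, n = 4, here and in the other tissues). Spleen clonotypes used them in 23.3% ± 5.49, 28.4% ± 5.69, 28.5% ± 5.15 and 19.8% ± 4.05, and lymph node clonotypes in 35.99% ± 15.4, 29.0% ± 13.9, 17.7% ± 6.66 and 17.4% ± 4.19. IGHJ1 had the lowest mean in each tissue but was the least used gene in only 2 of 4 samples of each. Skin replicate 2 had no IGHA clonotype with IGHJ1. The CDR3, the loop that the junction encodes, averaged 12.6, 11.6, 11.7 and 11.7 codons over IGHA clonotypes in skin, 12.1 to 12.3 in spleen, 11.8 to 12.9 in lymph node and 11.6 in the control. The tissues overlapped, and no comparison of its length passed (adjusted p = 0.686 to 1.0, exact permutation test).

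IGHA clonotypes were shared between tissues mostly under the same replicate number. Skin and lymph node shared 2, 8, 4 and 5 IGHA clonotypes in replicates 1 to 4, which was 4.0% to 8.25% of the skin and 0.897% to 1.71% of the lymph node IGHA clonotypes. Samples of different number shared 0 to 2. The shared clonotypes held 1.88%, 71.9%, 18.5% and 9.46% of skin IGHA copies, the largest share being that of replicate 2, where 5 of the 8 shared clonotypes had a single lymph node copy. Some of those 8 had the same or a nearly identical junction, such as an IGHV1-7 junction that was also listed under IGHV1-26. A share of skin copies could be large under different numbers too, where 1 or 2 shared clonotypes held 32.9% for skin replicate 2 with lymph node replicate 4, 10.8% for skin replicate 3 with lymph node replicate 2 and 8.61% for skin replicate 4 with lymph node replicate 1. In those lymph node samples the same clonotypes held only 0.00871%, 0.287% and 0.0882% of IGHA copies. Skin and spleen shared 8, 34, 27 and 36 under the same number, 16% to 39.1% of skin and 0.101% to 0.233% of spleen IGHA clonotypes, against 0 to 2 under different numbers. Spleen and lymph node shared 37, 244, 104 and 161, 0.728% to 1.08% of spleen and 16.6% to 52.2% of lymph node IGHA clonotypes. Under different numbers they shared up to 51, the highest being spleen replicate 2 with lymph node replicate 1 (0.152% of the spleen and 22.9% of the lymph node clonotypes), and the next highest pair shared 7. Whether the shared sequences of that pair came from the tissues or from the libraries was not tested. Lymph node replicate 1 thus shared more IGHA clonotypes with spleen replicate 2 than with spleen replicate 1, where it shared 37. Those 37 held 34.0% of its IGHA copies, against 18.4% for the 51.

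Some shared clonotypes ranked high in more than 1 tissue. The IGHV1-53 clonotype printed above for lymph node replicate 3 was first there with 685 IGHA copies, rank 2 in skin replicate 3 with 317, and had 993 in spleen replicate 3. The IGHV1-7 clonotype printed for skin replicate 2 had 1783 copies there, 2405 in spleen replicate 2 and 89 in lymph node replicate 2, where its rank was 4. No skin IGHA clonotype was found in the control, which shared 2 to 24 with a spleen sample and 0 to 2 with a lymph node sample.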

How the data were processed

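Bulk heavy-chain RNA was read per the labels' protocols by a commercial service with constant-region primers, a 10-nucleotide molecular identifier and a V primer mix. The deposited tables give a whole-number count per distinct sequence, called copies here; the file headers do not state whether these counts are of identifiers or reads. V mismatches and aligned V length, another kind of value, are also as deposited by the authors. Per the submitters' processing notes the build was mm10; which aligner was used: not given in the sources used here. Whether replicates are separate mice is not stated beyond "biological", so p-values measure the spread between these samples.

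Libraries held 2215 to 4183 copies in skin, 79235 to 683759 in spleen, 44772 to 117512 in lymph node and 318201 to 327365 in the control; a count of 0 allows 3 counts of the total. Intervals and floors cover counting error only. The 2 libraries of a replicate were summed. Equal-depth values were exact hypergeometric expectations. Python 3.11.15, numpy 2.4.6, pandas 2.3.3, scipy 1.17.1 and numba 0.67.0 were used, and the steps were tested on simulated data. Lineages joined clonotypes alike in V gene, J gene and CDR3 length at 85% identity. Alternatives were single libraries, each replicate left out, a replicate block, copy weighting, minimum copies, clonotypes in both libraries, lineages and full depth. Leaving out clonotypes whose constant gene differed between libraries and averaging the IGHA and IGHM comparison per replicate number were added after seeing the data. Named clonotypes were the largest per sample with IGHA in both libraries and the largest per tissue with IGHM or IGHD and with IGHG; named V genes were the 3 highest per tissue. The gene, lists and rules were chosen with earlier results of these data known. The reference for mismatches was the commonest unmutated IGHA sequence of the same allele and length; it gave the deposited mismatch count for 19 of 20 named entries, and the other is not printed. No test ran across many features.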

Additional observations from a re-analysis of the deposited data

Results flagged for a closer look

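Among 39 groups of 4 samples, 4 held a sample whose gap to the nearest other sample was too large a part of the group's range (Dixon's criterion at 95%), where chance alone gives about 1 in 20 groups. Skin replicate 3 had a standard deviation of V mutation over IGHA clonotypes of 2.92 points, against 2.60 to 2.65 in the other skin samples. Skin replicate 1 had a mean CDR3 length of 12.6 codons over IGHA clonotypes, against 11.6 to 11.7 in the other skin samples, and rests on 50 clonotypes. Spleen replicate 4 had a mean CDR3 length of 12.3 codons, against 12.1 in each of the others. Lymph node replicate 4 had 24.95 copies per IGHA clonotype, against 5.09 to 7.70 in the other lymph node samples, and 10.7 without the clonotypes that its libraries listed under different constant genes.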

How the results depend on the processing

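The 2 comparisons of skin for IGHG beside IGHA were fixed by zeros in all skin samples and are not read as tests. Of the other 33 tested results, 17 passed, and none of those 17 changed direction under any alternative run. Over 517 recomputed values of these, 427 kept direction and side of the threshold, 56 lost a call, 12 gained one and 22 changed sign, all of the last among results that had not passed. Except where stated, the cause of a change was not tested.

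With library 1 alone, copies per clonotype gave 21.4 for skin over spleen, 20.1 for skin over lymph node and -1.27 for spleen over lymph node. IGHG beside IGHA gave -0.491 and -0.880 points for skin over spleen and over lymph node, not read as tests because of the zeros in skin. Mean V mutation gave 1.16 for skin and 0.873 for spleen over lymph node, both losing the call. The unmutated share gave -9.82 and -6.98 for the same pairs, both gained. With library 2 alone, skin over spleen in the IGHA share of clonotypes (16.3 points) was lost. IGHG for skin over spleen (-0.698) and over lymph node (-0.796) was again not read as a test. Spleen over lymph node in copies per clonotype (4.82) and skin over lymph node in the 10 largest (27.9) were gained, and IGHM or IGHD, spleen over lymph node, turned to -0.0309.

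Without single-copy clonotypes, the share of clonotypes, skin over spleen (10.3), and mean V mutation, skin and spleen over lymph node (0.976 and 0.714), were lost. The mutation spread (0.0145) and the unmutated share (0.891), skin over spleen, turned sign. With clonotypes of both libraries only, the 10 largest, skin over lymph node (17.3), and the unmutated share, skin over spleen (-3.45) and over lymph node (-9.29), passed. IGHM or IGHD, skin over spleen (-1.28) and over lymph node (-0.858), and the mutation spread, skin over spleen (0.0991), turned. With 10 or more copies, IGHM or IGHD, skin over spleen, turned to -5.81. Weighted by copies, mean V mutation over lymph node was lost for skin (1.80) and spleen (1.59), and CDR3 length, spleen over lymph node, turned to 0.0832 codons.

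With lineages, mean V mutation, skin over spleen (1.0), and its spread, skin over spleen (0.581, turned) and over lymph node (0.740), passed, and spleen over lymph node in mean V mutation (0.394) was lost. IGHM or IGHD, skin over spleen (-5.34), and IGHG, spleen over lymph node (2.97), turned. At full depth IGHM or IGHD turned for skin over spleen (-0.807), skin over lymph node (-1.37) and spleen over lymph node (-0.561), as did IGHG, spleen over lymph node (0.926). Without clonotypes listed under different constant genes, the 10 largest, skin over lymph node (25.3), passed, while IGHM or IGHD (-0.0423) and IGHG (0.436), spleen over lymph node, turned. This last alternative was chosen after seeing the data.

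Each replicate was left out in turn, which leaves fewer splits. A range in brackets covers all 8 samples of the comparison left out in turn, not only those named beside it. Calls were lost for the share of copies, skin over spleen (21.6 to 31.8 points), without any 1 spleen sample, and for the share of clonotypes, skin over spleen (15.7 to 22.1) and over lymph node (23.1 to 29.5), without any 1 spleen or lymph node sample. They were lost for distinct clonotypes, skin over lymph node (-189.7 to -127.3), without any 1 skin sample. IGHG, skin over spleen (-1.56 to -0.835) and over lymph node (-2.26 to -0.537), was not read as a call, with zeros in all skin samples. Mean V mutation, skin (0.826 to 1.42) and spleen (0.705 to 0.891) over lymph node, lost its call without any 1 lymph node sample. Copies per clonotype, skin over spleen (25.2 to 32.3) and over lymph node (27.5 to 36.6), lost it without skin replicate 1 or 2. Without lymph node replicate 4, copies per clonotype, spleen over lymph node (0.413 to 7.04), and the 10 largest, skin over lymph node (18.0 to 30.6), passed. Ranges that crossed 0 were those of CDR3 length (-0.161 to 0.202), IGHG (-0.967 to 0.751) and IGHM or IGHD (-0.281 to 2.04), spleen over lymph node, and mutation spread, skin over spleen (-0.120 to 0.0402).

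Samples of the same number deviated together in V gene use with r of -0.317 to 0.118, which does not pair the numbers by this check, but identical IGHA clonotypes were shared mostly within a number, so same-numbered samples may not be independent. With the replicate block only 16 sign patterns exist and no p can pass, so every tissue call is lost by construction at the same size: share of copies 26.5, 55.4 and 29.0, share of clonotypes 18.1, 25.6 and 7.43, and distinct clonotypes -490.5, -153.8 and 336.6, for skin over spleen, skin over lymph node and spleen over lymph node. The others are copies per clonotype, skin over spleen (29.6) and over lymph node (31.9), and the 10 largest, skin over spleen (67.8) and spleen over lymph node (-44.7). The last are mean V mutation over lymph node, skin (1.12) and spleen (0.818). IGHG, skin over spleen (-1.29) and over lymph node (-1.72), also kept its size but is not read as a test. Averaged per replicate number, an alternative chosen after seeing the data, IGHA minus IGHM was 2.36 points in V mutation and 2.21 in log2 copies per clonotype, and neither could pass with 4 numbers. Depth limits skin most, where a sample held 50 to 97 IGHA clonotypes.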
